A study of Mus musculus with 12 samples.

Results

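The mT3-2D line in culture was represented by 2 of the 12 samples of the series, chosen by their labels, and all 750 genes with a value were described in them. Its label calls it a murine KPC line. KPC is a genetically engineered mouse model of pancreatic cancer. The other samples were tumours of this line grown under the skin, 5 in SCID mice, which lack mature T and B cells, and 5 in wild-type (WT) mice, and they enter no comparison here. The labels give no treatment, passage or culture condition for the line, and they do not say whether its replicates came from separate cultures, so the spread given below may be technical.

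Transcripts were measured with the Mouse PanCancer Immune panel on the NanoString nCounter system, which hybridises a barcoded probe pair to each transcript and counts the barcodes without amplification. The panel was built for tumour tissue, where a transcript can come from malignant cells, leukocytes, vessels or fibroblasts. Carcinoma cells are known to make many such transcripts themselves, among them secreted chemokines, matrix proteins, receptors for interferons and tumour necrosis factor, and the MHC class I molecules that show peptides to T cells. A culture of the line alone shows which of these transcripts the tumour cells held in that culture. It does not show which they could make under other conditions. Each value is a probe count recovered from the deposited table, and counts are given for replicate 1 and then replicate 2. A target region of fixed size is read for each gene, so counts do not grow with transcript length. Probes still differ in efficiency, so the order of genes is an order of probe counts and not of transcript numbers.

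Total recovered counts were 463239 and 469812. A pair of levels divided the genes. The upper level, 162 counts, was the 95th percentile of counts over 45 genes of T and B cells, which a pancreatic cancer line was presumed not to express. It was raised by a few genes with clear signal in the line, Tigit and Blnk among them. With 4 genes left out, these and Eomes included, a choice made after their values were seen, the remaining 41 genes gave a lower level of 29.9 counts, and their highest count was 39. Above the upper level in both samples lay 208 genes (27.7% of 750), and above the lower level in both lay 318 (42.4%). Another 33 genes passed the lower level in 1 sample, and 399 were at or below it in both, which is called at background here. The 110 genes that passed the lower level in both samples but the upper level in at most 1 are described as lying between the levels. In bulk RNA, a few cells with much of a transcript and many cells with little cannot be told apart.

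The cells carried epithelial transcripts and little of the markers of other cell types. E-cadherin (Cdh1), the junction protein of epithelia, had 4850 and 5214 counts. The membrane mucin gene Muc1 had 2122 and 2109, and the epithelial adhesion gene Epcam had 614 and 642. Of 6 measured epithelial tumour cell markers, 4 were above the upper level (these 3 and Cd9). Ceacam1, an adhesion molecule of epithelia, lay between the levels at 60 and 85 counts. Cd44, the hyaluronan receptor, was at the lower level, with 24 counts in replicate 1 and 32 in replicate 2.

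The defining markers of other cell types were at or near background. Ptprc, which encodes the leukocyte antigen CD45, had 19 and 16 counts, with 95% exact Poisson intervals of 11.4 to 29.7 and 9.15 to 26.0. The T cell receptor chain gene Cd3e had 18 and 11, the B cell gene Ms4a1 18 and 17, and the NK cell receptor gene Ncr1 12 and 5. These counts were no higher than those of most genes of the panel, whose median was 23 and 25. The macrophage gene Csf1r had 26 and 21 counts, the endothelial gene Pecam1 13 and 13, and the fibroblast collagen gene Col1a1 8 and 25. Among 34 markers of 10 non-epithelial cell types, 3 lay between the levels and the others were at background in both samples. These 3 were Cd68, a lysosomal glycoprotein of macrophages, with 53 and 50 counts, the T cell receptor chain gene Cd3d with 30 and 39, and the mannose receptor gene Mrc1 with 30 and 32. The T and B cell markers belong to the genes that set the levels, so their place against the levels is no finding.

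**Figure D1:**
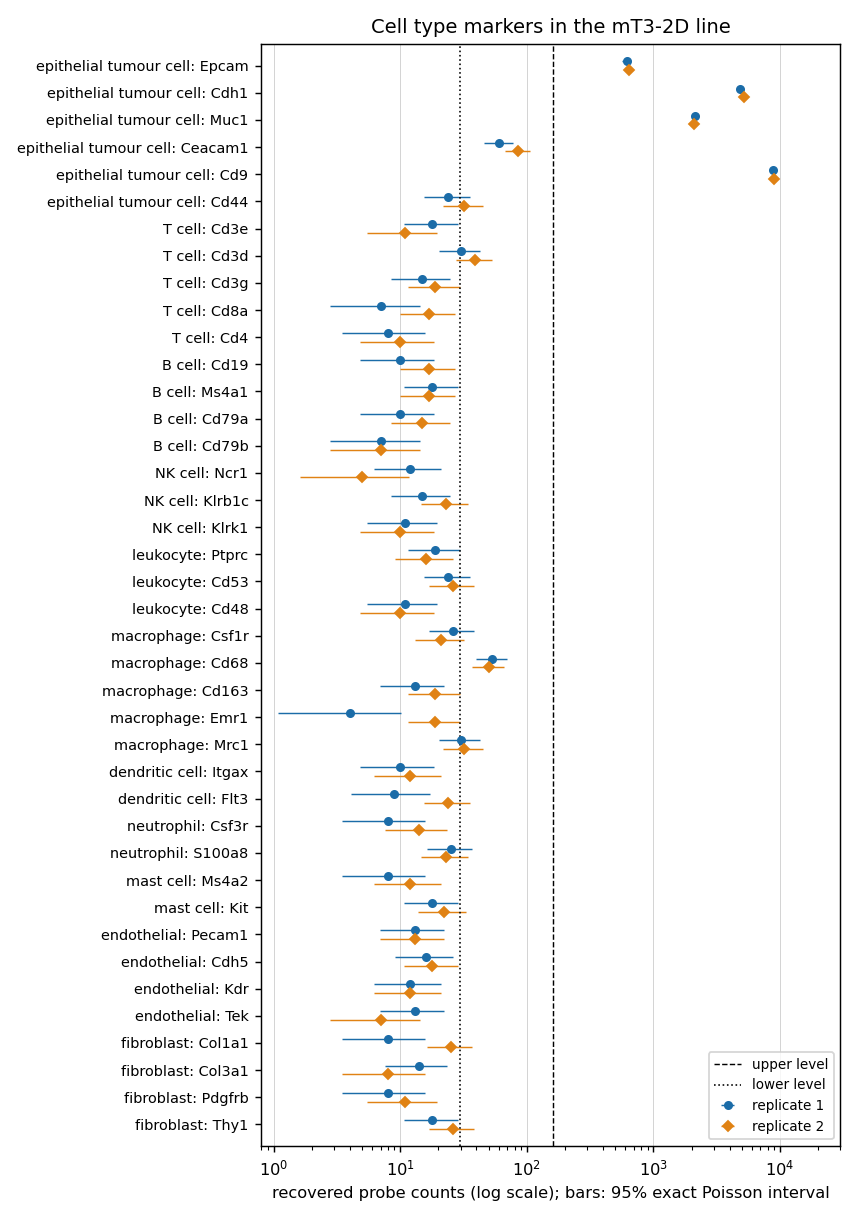
Recovered probe counts (log axis) of cell type markers in replicate 1 (circles) and replicate 2 (diamonds) of the line, with 95% exact Poisson intervals and the upper (dashed, 162 counts) and lower (dotted, 29.9 counts) levels. Cdh1, Muc1, Epcam and Cd9 lie above the upper level, and every marker of another cell type lies below it.

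A few genes held most of the signal. The secreted chaperone gene clusterin (Clu) had 141557 and 143478 counts, 30.6% and 30.5% of all counts. Osteopontin (Spp1), a secreted phosphoprotein that binds integrins and CD44, followed with 33323 and 31230. Together they made up 37.8% and 37.2% of the counts, and the 30 highest genes made up 70.2% in each sample. Genes that did not pass the upper level in both samples, although they were the majority of the panel, held 3.26% and 3.45% of the counts.

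Below these came genes of carcinoma cells, growth signalling and the cell surface. Mesothelin (Msln), a surface glycoprotein known from pancreatic and ovarian cancer, had 15185 and 16087 counts. Vimentin (Vim), the intermediate filament protein of mesenchymal cells, had 11171 and 11538, and thus stood above Cdh1. The tetraspanin genes Cd9 (8744 and 8931), Cd63 (6170 and 6742) and Cd81 (4335 and 4555) were all among the 30 highest. Dusp6, a phosphatase that acts on ERK and is induced by ERK signalling, had 7977 and 8264 counts, and the related gene Dusp4 had 1431 and 1248. The transcription factor gene Myc had 3232 and 3393, and Hif1a, the oxygen-regulated transcription factor gene, 2994 and 3101.

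The others among the 30 highest ranged from 2820 to 6831 counts. They held Lgals3 (galectin-3), the cytokine gene Mif, the matrix gene Fn1 (fibronectin), the integrin genes Itgb1 and Itga6, Tnfrsf12a (the receptor of the cytokine TWEAK), Gpi1 of glycolysis, Anxa1 (annexin A1), Il1rn (the interleukin 1 receptor antagonist), Ifngr1 (a chain of the interferon-gamma receptor) and Anp32b. The remainder were the proteasome subunit gene Psma2, the amyloid precursor gene App, the lysosomal membrane genes Lamp1 and Lamp2, the urokinase receptor gene Plaur, and the sialomucin gene Cd164, beside Tfrc, the transferrin receptor gene. On the normalized log2 scale, which sets the order, 17 of 29 adjacent pairs were separated, in that the lower sample of the higher gene exceeded the higher sample of the next, and the other 12 overlapped. Clu, Spp1 and Msln were each separated from the gene below them. The largest SD in these 30 genes was 0.10 on the log2 scale, for Itgb1 (n = 2).

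**Figure D2:**
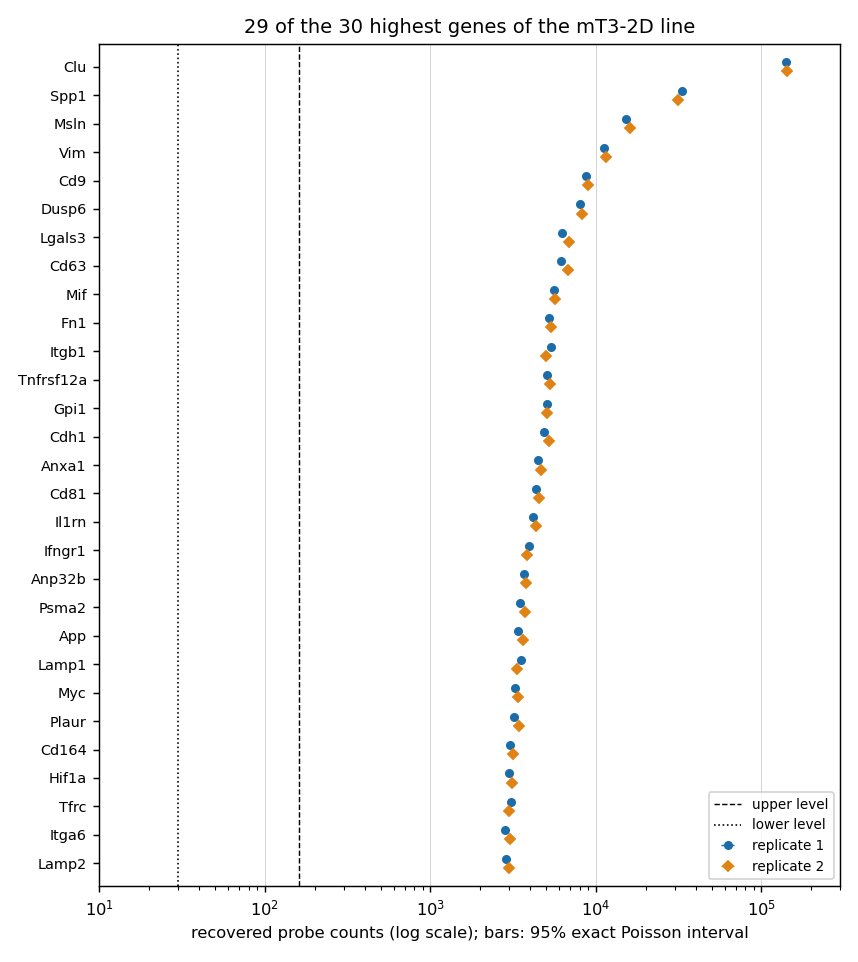
Recovered probe counts (log axis) of 29 of the 30 genes with the highest mean log2 level in replicate 1 (circles) and replicate 2 (diamonds), with 95% exact Poisson intervals that are mostly smaller than the symbols. Clu stands apart at 141557 and 143478 counts, and the other genes range from 2820 to 33323.

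The replicates agreed closely for genes with high counts and less so near background. The median gap between them was 0.06 on the log2 scale for genes above the upper level, 0.23 between the levels and 0.39 at background. Over 742 genes with more than 10 combined counts the chi-square was 1.64 per degree of freedom, more than counting error alone gives (p = 7.43e-26 from the chi-square distribution). The excess lay mainly in the 118 genes with 1000 or more combined counts (3.75 per gene), against 1.24 in the other 624. An exact binomial test on the counts, two-sided with Benjamini-Hochberg adjustment over 750 genes, called 9 genes (1.2% of 750; 67 at an unadjusted p under 0.05). The test compares these libraries, not conditions.

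Spp1 took 7.19% of counts in replicate 1 and 6.65% in replicate 2 (exact binomial adjusted p = 8.77e-21). H2-D1, a classical MHC class I heavy chain, had 1686 and 1350 counts (exact binomial adjusted p = 3.3e-08), the largest gap on the log2 scale among the called genes above the upper level, at 0.37. The related heavy chain genes H2-T23 (943 and 882) and H2-K1 (417 and 388) were not called (exact binomial adjusted p = 0.636 and 0.844). Itgb1 and Dusp4 were among the others higher in replicate 1, while Msln, Lgals3, Cd63 and Cxcl10 were higher in replicate 2. Cxcl10, a chemokine induced by interferons, was the 1 called gene below the upper level, at 36 and 73 counts (exact binomial adjusted p = 0.0435). When the deposited normalization factors set the expected share in place of the totals, Cxcl10, Msln and Cd63 were not called, and Clu and Lamp1 were.

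**Figure D3:**
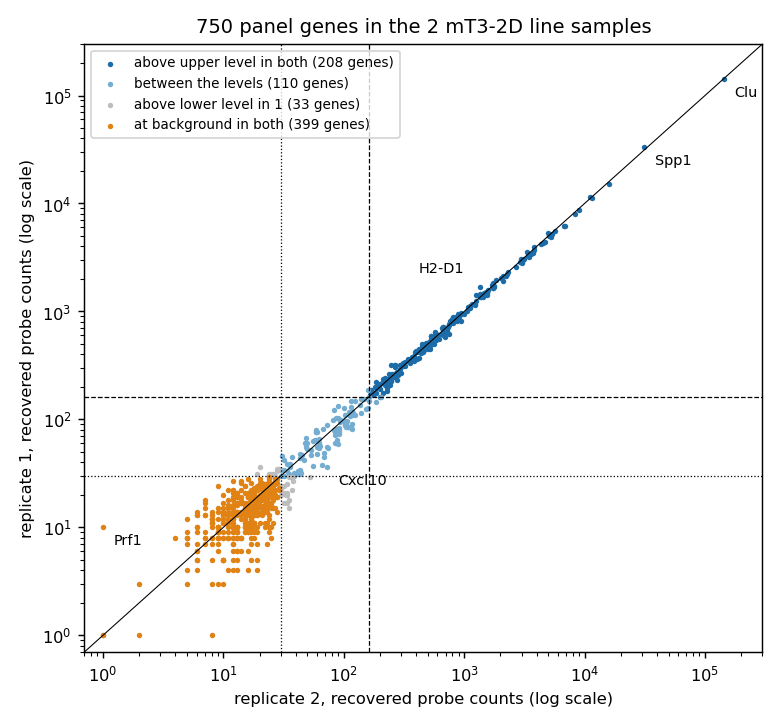
Recovered probe counts of 750 genes in replicate 1 (vertical log axis) against replicate 2 (horizontal log axis), with the line of equal counts and the upper (dashed) and lower (dotted) levels. The 208 genes above the upper level lie along the line, and the 399 genes at background form a cloud below 30 counts.

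Read by gene list, the lists differed widely in how many of their measured genes were above the upper level. The share of a list above the upper level is to be read beside 27.7% for all genes, and the share at background beside 53.2%. That share was 16 of 19 for epithelial and tumour cell surface genes, 13 of 19 for colony-stimulating and growth factor genes, 12 of 18 for apoptosis and autophagy genes and 24 of 38 for the mixed list of cell cycle and transcription genes. Median levels of these lists were 8.81, 8.04, 7.78 and 7.95 on the log2 scale, against 4.05 over all genes. At the other end, no measured gene was above the upper level among 19 chemokine receptors, 25 NK and cytotoxic genes, 20 pan-leukocyte genes, 14 endothelial genes, 14 neutrophil and mast cell genes and 10 dendritic cell genes. The lists share 47 genes, and 179 genes of the panel belong to none. Members and lists were chosen with earlier results of these data known, so the order of the lists is no independent finding about the cells.

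**Figure D4:**
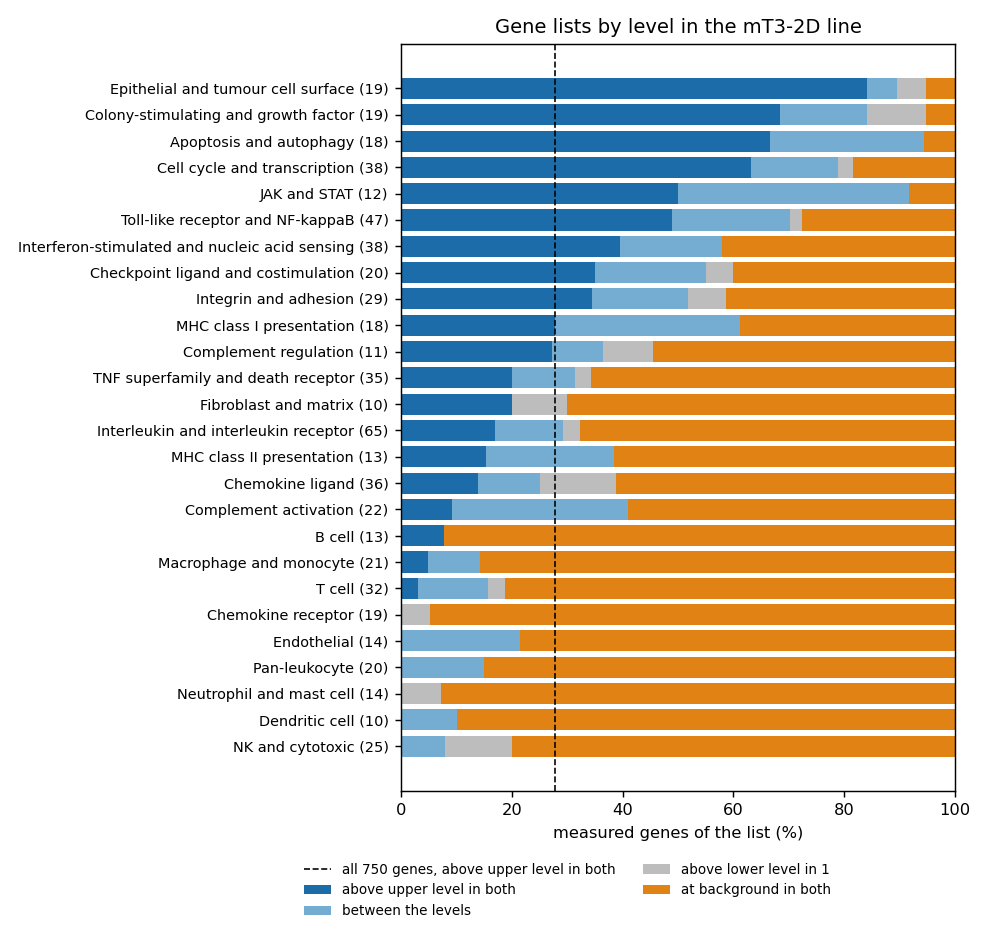
Share of the measured genes of each list (number measured in brackets) above the upper level in both samples, between the levels, above the lower level in 1 sample, and at background in both. The dashed line marks the share of all 750 genes above the upper level, 27.7%. The epithelial and tumour cell surface list has the largest such share, with 16 of 19 genes, but the lists were chosen with earlier results known.

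Of the chemokine ligand genes, 61.1% were at background, beside 53.2% of all genes, and 5 were above the upper level. Of 36 measured ligand genes, 5 were above the upper level, 4 between the levels, 5 above the lower level in 1 sample and 22 at background. Cxcl5, which attracts neutrophils through the receptor CXCR2, had 1502 and 1532 counts. Cxcl16, a membrane-bound ligand of CXCR6, had 599 and 666, and Ccl20, the ligand of CCR6, had 408 and 435. Ccl2, which attracts monocytes, had 340 and 324 counts, and Cx3cl1 (fractalkine), the ligand of CX3CR1, had 238 and 239. Each of the 5 had counts in both samples above those of all other ligands.

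Other ligands of the neutrophil receptor CXCR2 were not above the lower level in both samples. Cxcl1 had 7 and 6 counts, with exact Poisson intervals of 2.81 to 14.4 and 2.20 to 13.1, Cxcl2 had 20 and 18, and Cxcl3 had 29 and 35. Of the ligands of CXCR3, which attract activated T cells, Cxcl9 (5 and 12) and Cxcl11 (22 and 26) were at background and Cxcl10 lay between the levels. Among 19 chemokine receptors, 18 were at background and Ccr8 passed the lower level in 1 sample (36 and 20), so no measured receptor passed that level in both samples.

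**Figure D5:**
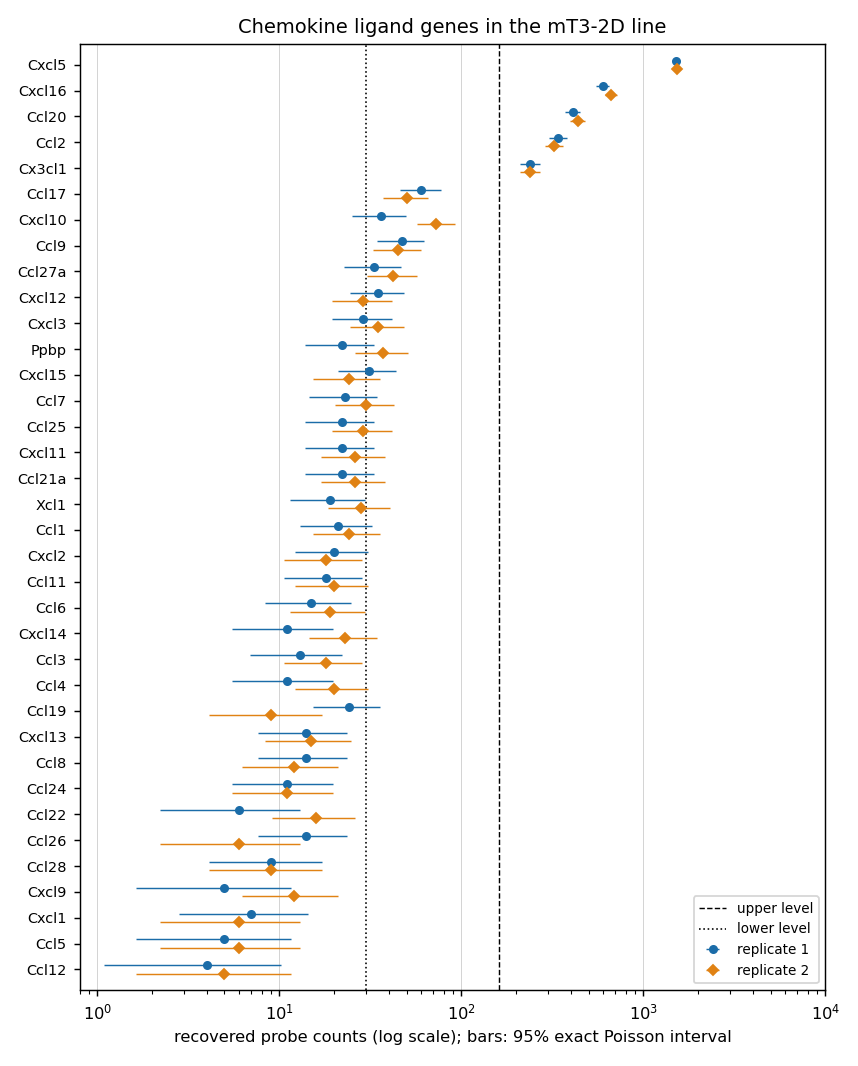
Recovered probe counts (log axis) of 36 chemokine ligand genes in replicate 1 (circles) and replicate 2 (diamonds), with 95% exact Poisson intervals and the upper (dashed) and lower (dotted) levels. Cxcl5, Cxcl16, Ccl20, Ccl2 and Cx3cl1 lie above the upper level, and Cxcl1 lies near the bottom at 7 and 6 counts.

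The upstream sequence of 5 cytokine and interferon-stimulated genes is shown because genes with the same letters for an inducible factor were found at very different levels. The 250 bases before the annotated start are given from RefSeq (GRCm38.p6), and capitals mark matches on either strand to either of 2 motifs. The first, a form of the NF-kappaB site, is GGG and TTCC with any 3 bases between them. The second, the core of the interferon-stimulated response element, is GAAA and GAAA with any 2 bases between them. The 5 genes, Ifit3 and Isg15 included, were picked for display with their levels in view. The contrast between their levels is therefore no finding about the motifs.
Ccl20 (chr1:83116516-83116765, plus strand): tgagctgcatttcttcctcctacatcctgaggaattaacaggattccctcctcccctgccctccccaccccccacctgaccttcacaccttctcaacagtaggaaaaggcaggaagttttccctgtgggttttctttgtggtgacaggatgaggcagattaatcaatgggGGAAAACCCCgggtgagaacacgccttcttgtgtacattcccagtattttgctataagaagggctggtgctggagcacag
Cxcl1 (chr5:90890995-90891244, plus strand): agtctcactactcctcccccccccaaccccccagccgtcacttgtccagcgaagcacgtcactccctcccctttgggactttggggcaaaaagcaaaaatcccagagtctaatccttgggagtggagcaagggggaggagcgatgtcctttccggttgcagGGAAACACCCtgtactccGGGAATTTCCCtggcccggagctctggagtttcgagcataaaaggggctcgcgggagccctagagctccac
Cxcl10 (chr5:92348890-92349139, minus strand): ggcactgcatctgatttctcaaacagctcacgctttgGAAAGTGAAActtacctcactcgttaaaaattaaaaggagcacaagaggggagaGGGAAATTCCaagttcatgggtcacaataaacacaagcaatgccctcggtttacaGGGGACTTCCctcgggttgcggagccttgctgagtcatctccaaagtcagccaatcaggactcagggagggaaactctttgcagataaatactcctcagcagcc
Ifit3 (chr19:34583279-34583528, plus strand): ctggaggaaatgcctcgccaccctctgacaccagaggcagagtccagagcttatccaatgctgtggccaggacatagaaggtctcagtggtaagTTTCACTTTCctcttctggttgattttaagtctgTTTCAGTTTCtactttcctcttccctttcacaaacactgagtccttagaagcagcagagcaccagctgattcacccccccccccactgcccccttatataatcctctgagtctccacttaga
Isg15 (chr4:156200819-156201068, minus strand): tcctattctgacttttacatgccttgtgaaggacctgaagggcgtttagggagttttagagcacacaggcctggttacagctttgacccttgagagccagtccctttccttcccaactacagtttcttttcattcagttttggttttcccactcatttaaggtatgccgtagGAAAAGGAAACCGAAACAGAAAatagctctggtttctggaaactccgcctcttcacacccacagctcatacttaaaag
Of 32851 promoter windows of this length, 4.65% held the NF-kappaB letters and 2.98% the interferon letters. Ccl20, at 408 and 435 counts, had 1 match to the NF-kappaB letters, and Cxcl1, at 7 and 6 counts, had 3, of which 2 overlap on opposite strands. Cxcl10 had 2 of these and 1 match to the interferon letters. Ifit3 had 2 matches to the interferon letters at 177 and 211 counts, while Isg15 had 3 overlapping matches at 9 and 16 counts. A match is a description of the letters and does not show a bound site.

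Interferon receptor genes were above the upper level, and genes that interferons induce were found both above it and at background. Ifngr1 had 3943 and 3815 counts, and the type I receptor chains Ifnar1 and Ifnar2 had 613 and 582 and 322 and 269. The transcription factor genes Irf1 (349 and 384), Irf2 (351 and 344) and Irf3 (447 and 501) were also above that level. Of 38 measured genes of the interferon and nucleic acid sensing list, 15 were above the upper level, 7 between the levels and 16 at background. That is 39.5% above the upper level, beside 27.7% of all genes, and 42.1% at background, beside 53.2%. The list also holds the receptor genes named above, so these are not counts of induced genes. Ifitm2, a membrane protein that limits virus entry, had 1669 and 1777 counts, Isg20, an exonuclease gene, 848 and 794, and Bst2 (tetherin) 368 and 418. Stat2, a factor that carries the type I interferon signal to the nucleus, had 197 and 228. Mx1 (19 and 13), Oas2 (13 and 18), Zbp1 (20 and 26) and Irf7 (24 and 25) were at background.

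In the JAK and STAT list 6 of 12 genes were above the upper level, 5 between the levels and 1, Stat4, at background. The share above the upper level was 50%, beside 27.7% of all genes. The kinase genes Jak2 (1470 and 1471) and Jak1 (1082 and 1122) and the factors Stat3 (786 and 804) and Stat6 (672 and 670) led the list. Stat3 acts downstream of interleukin 6 family cytokines, whose shared receptor chain gene Il6st had 216 and 226 counts. Il6 itself had 9 and 6.

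Genes of MHC class I presentation were found in every range, from well above the upper level to background, among the heavy chains and among the genes of peptide supply. Of 18 measured genes, 5 were above the upper level, 6 between the levels and 7 at background, which is 27.8% above the upper level beside 27.7% of all genes. H2-D1, H2-T23 and H2-K1 passed the upper level with the counts given above, as did Tapbp (tapasin, 227 and 221), which holds empty class I molecules at the peptide transporter, and the constitutive proteasome subunit gene Psmb7 (2117 and 2224). The heavy chain genes H2-Q1 (13 and 14) and H2-Q2 (16 and 22) were at background. The transporter genes Tap1 (21 and 16) and Tap2 (7 and 9) were also at background. So were Psmb8 (10 and 6), an immunoproteasome subunit, and Nlrc5 (11 and 15), the transactivator of class I genes. The immunoproteasome subunits Psmb9 (31 and 43) and Psmb10 (32 and 41) were just above the lower level. The class I and Klra genes are close families, and cross-hybridisation of their probes was not tested.

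Of 13 measured genes of MHC class II presentation, 2 were above the upper level, 3 between the levels and 8 at background. That is 15.4% above the upper level, beside 27.7% of all genes, and 61.5% at background, beside 53.2%. Those above the upper level were the lysosomal protease genes Ctsl (1949 and 1848) and Ctsh (421 and 407), which also serve general protein breakdown. The class II transactivator gene Ciita had 10 and 9 counts, the invariant chain gene Cd74 14 and 15, and the class II chain gene H2-Ab1 10 and 15. H2-DMb1 (57 and 63), H2-Ob (54 and 62) and H2-Aa (39 and 34) were the 3 between the levels.

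Checkpoint ligands and related surface genes were spread over all bands, with 7 of 20 above the upper level, 4 between the levels, 1 above the lower level in 1 sample and 8 at background. The share above the upper level was 35%, beside 27.7% of all genes, and 40% were at background, beside 53.2%. Lgals3 led with 6193 and 6831 counts, followed by Cd47, the signal against phagocytosis, with 1437 and 1350. The poliovirus receptor family genes Pvrl2 (603 and 575) and Pvr (471 and 444), whose proteins bind TIGIT and DNAM-1, and Raet1c (493 and 481), a ligand of the NK receptor NKG2D, were above the upper level. Cd276 (B7-H3) had 220 and 187 counts and Cd274, which encodes PD-L1, had 118 and 110, between the levels. The exact Poisson intervals of Cd274, 97.7 to 141 and 90.4 to 133, lay between the levels in both samples. Pdcd1lg2, which encodes PD-L2, had 17 and 32 counts.

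Growth factor and cytokine genes of the line were led by Spp1, Mif (5549 and 5694) and the angiogenic factor gene Vegfa (2320 and 2324). Of 19 measured colony-stimulating and growth factor genes, 13 were above the upper level, 3 between the levels, 2 above the lower level in 1 sample and 1 at background. The share above the upper level was 68.4%, beside 27.7% of all genes. The alarmin gene Hmgb1 had 1126 and 1119 counts. Transforming growth factor beta was present on both sides, with the receptor genes Tgfbr2 (957 and 994) and Tgfbr1 (773 and 751) and the ligand gene Tgfb1 (479 and 494). Csf1, the growth factor of macrophages, had 264 and 236 counts. Csf2, the growth factor of granulocytes and macrophages, was near the lower level at 45 and 37, and Csf3, that of neutrophils, at 30 and 27.

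Interleukin and interleukin receptor genes at background made up 67.7% of their list, beside 53.2% of all genes, and ligands and receptors were found on both sides. Of 65 measured interleukin and interleukin receptor genes, 11 were above the upper level, 8 between the levels, 2 above the lower level in 1 sample and 44 at background. Il1rn, the antagonist that occupies the interleukin 1 receptor, had 4193 and 4338 counts, while Il1a had 17 and 13 and Il1b 16 and 11. Il5ra, the interleukin 5 receptor chain known from eosinophils and B cells, had 1104 and 1122. Il34, a cytokine that binds the CSF1 receptor, had 232 and 228. The interleukin 4 receptor chain gene Il4ra had 321 and 267, and the adaptor genes Tollip (447 and 517) and Irak1 (270 and 271) dampen and carry signals of the interleukin 1 and Toll-like receptors. Other receptor chain genes were at background, such as Il2ra (10 and 13), Il7r (16 and 18) and Il10ra (10 and 19).

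In the TNF superfamily list 65.7% of genes were at background, beside 53.2% of all genes. Of 35 measured genes, 7 were above the upper level, 4 between the levels, 1 above the lower level in 1 sample and 23 at background. Tnfrsf12a had 5062 and 5277 counts, the lymphotoxin receptor gene Ltbr 1360 and 1365, the TNF receptor gene Tnfrsf1a 896 and 858, and the TRAIL receptor gene Tnfrsf10b 717 and 728. Tnfaip3, an inhibitor of NF-kappaB signalling, had 313 and 308. The ligand genes Tnf (12 and 8), Tnfsf10 (3 and 9) and Fasl (13 and 15) were at background, while the ligand gene Tnfsf12 (77 and 59) lay between the levels. Receptor genes at background included Tnfrsf4 (18 and 21), Tnfrsf9 (23 and 24), Tnfrsf14 (9 and 10) and Cd40 (5 and 8). Fas had 30 counts in replicate 1 and 26 in replicate 2.

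Of 47 measured Toll-like receptor and NF-kappaB genes, 23 were above the upper level, 10 between the levels, 1 above the lower level in 1 sample and 13 at background. That is 48.9% above the upper level, beside 27.7% of all genes, and 27.7% at background, beside 53.2%. High in the list were kinases of the MAP kinase cascade, Mapk3 (1906 and 2120) and Map2k1 (1523 and 1558), and Chuk (1253 and 1255), a kinase of the NF-kappaB inhibitor complex. The components that recognise lipopolysaccharide, Tlr4 (384 and 381), its co-receptor Cd14 (809 and 867) and the adaptor protein gene Ly96 (359 and 343), were all above the upper level. Tlr3 (76 and 59) and Tlr2 (52 and 53) lay between the levels. The inflammasome genes Nlrp3 (1 and 2), Pycard (11 and 8) and Casp1 (7 and 19) were at background.

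Complement genes at background made up 54.5% of the regulators and 59.1% of the activation genes, beside 53.2% of all genes. Clu, a fluid-phase inhibitor of the terminal complex, made up nearly all counts of the 11 measured regulators, of which 3 were above the upper level, 1 between the levels, 1 above the lower level in 1 sample and 6 at background. Cfi, a protease that inactivates C3b, had 510 and 481 counts, and Cd55, which dissociates convertases at the cell surface, had 318 and 292. Of 22 measured activation genes, 2 were above the upper level, 7 between the levels and 13 at background. These 2 were C1qbp (2888 and 2900), a mitochondrial and surface protein that binds C1q, and factor B (Cfb, 679 and 681). The central component gene C3 had 42 and 47 counts.

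Most genes of the apoptosis and autophagy list and of the mixed cell cycle and transcription list were above the upper level. No share was taken for the cell cycle genes alone. The shares were 66.7% for apoptosis and autophagy and 63.2% for cell cycle and transcription, beside 27.7% of all genes. In the apoptosis and autophagy list 12 of 18 genes were above the upper level, 5 between the levels and 1, Casp1, at background. The survival gene Bcl2l1 had 1430 and 1553 counts, Casp8 549 and 558, and Trp53, the tumour suppressor gene mutated in the KPC model, 558 and 585. Of 38 cell cycle and transcription genes, 24 were above the upper level, 6 between the levels, 1 above the lower level in 1 sample and 7 at background. After Myc and Hif1a these were led by Fos (1722 and 1760), Ewsr1 (1766 and 1697) and Smad3 (1473 and 1539). The cell cycle kinase gene Cdk1 (25 and 27) was at background, and Cdkn1a (83 and 91), an inhibitor of cell cycle kinases, lay between the levels.

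Integrin and adhesion genes above the upper level made up 34.5% of their list, beside 27.7% of all genes. Of 29 integrin and adhesion genes, 10 were above the upper level, 5 between the levels, 2 above the lower level in 1 sample and 12 at background. Itgb1 (5369 and 5004) can pair with Itga6 (2820 and 3033) and with Itga2 (1584 and 1580), in receptors for laminin and collagen. Another integrin chain gene, Itgb4 (519 and 510), was also above the upper level. Which chains pair in the line was not tested. The leukocyte integrin genes Itgam (3 and 5), Itgax (10 and 12) and Itgb2 (12 and 15) were at background. In the fibroblast and matrix list, 2 of 10 genes were above the upper level, 1 above the lower level in 1 sample and 7 at background. That is 20% above the upper level and 70% at background, beside 27.7% and 53.2% of all genes. Those 2 were Fn1 (5225 and 5370) and Col4a1 (666 and 722), a basement membrane collagen, while the fibrillar collagen gene Col3a1 had 14 and 8 counts.

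Some genes named for leukocytes were above background in the line. Of 32 T cell genes, 1 was above the upper level, 4 between the levels, 1 above the lower level in 1 sample and 26 at background. The gene above was Tigit, an inhibitory receptor of T and NK cells, with 259 and 269 counts. The T-box factor gene Eomes lay between the levels at 60 and 48. Of 13 B cell genes, 1 was above the upper level, the adaptor gene Blnk at 173 and 180 counts, and 12 were at background. At background were 81.25% of the T cell and 92.3% of the B cell genes, beside 53.2% of all genes. These genes set both levels, the lower one without 4 of them, so these shares were largely fixed in advance. How many of them lie above, between or below the levels is therefore no finding, and their counts are given as they stand.

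Of 21 macrophage and monocyte genes, 1 was above the upper level (Cd14), 2 between the levels and 18 at background. The share at background was 85.7%, beside 53.2% of all genes. For the other lists here it was 80% (NK and cytotoxic), 90% (dendritic cell) and 92.9% (neutrophil and mast cell). It was 85% for pan-leukocyte and 78.6% for endothelial genes. Among 25 NK and cytotoxic genes, 2 lay between the levels, 3 above the lower level in 1 sample and 20 at background. The highest was Klra4, a receptor of the Ly49 family, at 79 and 91 counts. Of 10 dendritic cell genes, 1 lay between the levels, the chemokine gene Ccl17 at 60 and 50 counts, and 9 were at background. Of 14 neutrophil and mast cell genes, 13 were at background. In the pan-leukocyte list 3 of 20 genes lay between the levels, the kinase gene Lyn (109 and 115), Syk (31 and 42) and Itgal (32 and 39), and 17 were at background. The endothelial list had 3 of 14 genes between the levels, Angpt2 (65 and 88), Vcam1 (49 and 68) and Mcam (38 and 66), and 11 at background.

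The genes nearest the upper level were little different from each other. Tank (167 and 166), Traf6 (172 and 173) and Lbp (174 and 178) lay just above it in both samples, and Thbs1 (153 and 148) and Il3ra (153 and 139) just below it. Traf3, Irak2, Mapk11 and Atf1 were among the 5 genes above it in 1 sample only. At the lower level, Mr1 (30 and 30) was just above in both samples and Csf3 above in replicate 1 only. Counts near either level differ by less than their counting intervals, so a gene's side of a level is uncertain there.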

How the data were processed

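RNA of the 2 mT3-2D line samples was counted on a NanoString nCounter instrument, per the labels' protocols, after extraction by the PureLink RNA Mini Kit and quality control on the Agilent BioAnalyzer. The authors deposited normalized log2 values for 750 genes and a second table of linear signal for 749 of them, which agree to 5.16e-09 on the log2 scale. Which genes the authors normalized to, and whether background was subtracted, is not given in the sources used here. In the deposited signal of the line, 100% of values were whole multiples of 1 step per sample, within 0.02 counts, which gave the recovered counts (1 count was worth 0.717 and 0.694 units). The suffix of gene names was removed and 244 blank rows were dropped. Depth was 463239 and 469812 counts, and intervals cover counting error only. Columns from outside the series numbered 0.

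No group test was planned, as the line was described alone. A gene was placed by its counts against the levels given above, and the libraries were compared by exact binomial test with the totals setting the expected share (scipy 1.17.1), which was tested on simulated data. The upper level is the planned one; the lower level was added after the data were seen. Named genes were the 30 highest by mean log2 level, up to 5 members of each list above the upper level (all such members of the T cell, B cell, NK, dendritic cell, neutrophil and mast cell lists), the 5 nearest above and below the upper level, up to 10 that differed most between samples, and a fixed list of well-known genes. B2m of that fixed list is not analysed here, and a few genes that the rule names are not reported here. Any other gene in the text was picked with its values in view. The members and lists were chosen with earlier results of these data known. Alternatives covered the level, the background genes, the scale, the table and each replicate. In RefSeq (GRCm38.p6), 736 symbols were current, 8 were synonyms and 6 had no match. Only 551 genes (73.5%) had a promoter entry, so sequence features were not compared between groups of genes.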

Additional observations from a re-analysis of the deposited data

How the results depend on the processing

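The number of genes called above background in both samples depends on the level. It was 208 above the upper level, 434 above the median count of the T and B cell genes (17 counts), 386 above a fixed 20 counts and 318 above the lower level, which was chosen after the data were seen. The numbers at or below these levels in both samples were 537, 206, 274 and 399. Under the other alternatives the number above ranged from 162 (highest T or B cell count without Blnk) to 293 (39.5 counts from the NK and cytotoxic genes, or 39 counts, the 99th percentile of the lower level's genes). Leaving out each replicate in turn gave 217 to 218 genes above and 532 to 533 at or below, with the level taken from the remaining sample. The number of genes that differed between the samples was 9, and 8 to 10 under the alternatives. The share of Clu was 30.5% to 30.6% throughout, and 29 or 30 of the 30 highest genes stayed when a replicate was left out. No paired analysis was possible because no result compares groups: the line's 2 samples stand alone. The only tests set these 2 libraries against each other. Depth limits genes near 30 counts or fewer, where a gene not detected may still be expressed.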
